A study of Mus musculus with 899 samples.

Results

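The let-7 family was followed in mouse plasma through 9 mature miRNA, the 5p arms mmu-let-7a-5p, mmu-let-7b-5p, mmu-let-7c-5p, mmu-let-7d-5p, mmu-let-7e-5p, mmu-let-7f-5p, mmu-let-7g-5p, mmu-let-7i-5p and mmu-miR-98-5p, which were chosen by name from the 1915 miRNA of the table. All 9 passed the filter on low counts that left 483 miRNA. The plasma libraries came from C3H mice (64 irradiated, 32 sham) and C57Bl/6 mice (68 irradiated, 32 sham), male and female, whose thorax was irradiated once or sham treated. Blood was taken before irradiation (PT), at day 2 or day 5, and monthly to month 4 in C3H and month 6 in C57Bl/6. Groups held 8 to 68 libraries. Irradiated C57Bl/6 libraries fell in number from 68 at month 1 to 8 at month 6, and those of C3H from 58 at month 1 to 17 at month 4, so the late irradiated groups hold only mice that were still bled. In C57Bl/6, 4 irradiated mice of title code G1AFR have libraries from month 1 on and none before irradiation, and without them the counts of members called after irradiation were the same. The label of each library carries a title code, such as G1AMS. Its parts were read here as cohort, bleeding arm (A was bled at day 2, B at day 5), sex and treatment (S for sham, R for irradiated). G1 and G3 are C57Bl/6 codes, and G2 and G4 are C3H codes. G1 and G2 are called cohort 1 and G3 and G4 cohort 2, a name that the codes themselves do not give. Cohort 2 has no library after month 1 in either strain. Because each strain has its own cohort codes, strain and any handling particular to a code cannot be told apart. The libraries held 206490 to 11814515 reads (median 1475030), and levels below are log2 CPM, the log2 of the count scaled to the library's effective depth. Plasma is a mixture, so fewer cells of a type and less RNA released per cell cannot be told apart.

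let-7 miRNA repress messenger RNA that pair with their seed, bases 2 to 8 of the mature strand. The family is known for its rise during development and differentiation, for targets that include Ras genes, Hmga2 and Lin28, and for the block that LIN28 places on the processing of its precursors. The same mature miRNA can be made from more than one gene, and members are found in most adult tissues and in blood cells.

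The 9 mature sequences are shown because their near identity bears on how the reads were assigned. They are given 5′ to 3′ from RefSeq (GRCm38.p6), with the seed in capitals:
mmu-let-7a-5p: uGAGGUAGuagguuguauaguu
mmu-let-7b-5p: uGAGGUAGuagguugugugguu
mmu-let-7c-5p: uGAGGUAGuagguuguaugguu
mmu-let-7d-5p: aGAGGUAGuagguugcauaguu
mmu-let-7e-5p: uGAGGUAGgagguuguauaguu
mmu-let-7f-5p: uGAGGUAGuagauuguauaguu
mmu-let-7g-5p: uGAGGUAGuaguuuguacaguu
mmu-let-7i-5p: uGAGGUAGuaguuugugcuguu
mmu-miR-98-5p: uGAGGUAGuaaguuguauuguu

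All 9 sequences were 22 bases long and had the same seed. Against let-7a, with positions counted from 1 at the 5′ end, let-7c differed by A19G, let-7e by U9G and let-7f by G12A. let-7b differed by A17G and A19G, and miR-98 by G11A and A19U. Of the 36 pairs of members, 4 were 1 base apart, 10 were 2 apart, and the most distant pair differed at 6 positions. How reads with a sequencing error or an untemplated base were assigned between members was not given in the sources used here, so a member's count may hold some reads of its nearest relatives.

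The genes are spread over several chromosomes (GRCm38). Mirlet7a-1 (chr13:48538179-48538272, minus strand), Mirlet7f-1 (chr13:48537829-48537917) and Mirlet7d (chr13:48536012-48536114) lie together in exons of the long non-coding RNA 6720427I07Rik, with 261 and 1714 bases between them. Mirlet7c-2 (chr15:85706603-85706697, plus strand) and Mirlet7b (chr15:85707319-85707403) lie 621 bases apart in exons of Lncppara. Mirlet7f-2 (chrX:151912346-151912428) and Mir98 (chrX:151913214-151913321) lie 785 bases apart in introns of Huwe1. Mirlet7g lies in an intron of Wdr82 (chr9:106178840-106178927), Mirlet7e in an intron of Spaca6 (chr17:17830352-17830444), and Mirlet7i in an exon of the pseudogene transcript D630033A02Rik (chr10:122985640-122985724, minus strand). let-7c has a second gene, Mirlet7c-1 (chr16:77599657-77599750, intron of Mir99ahg), and let-7a a second hairpin, Mirlet7a-2 (chr9:41536716-41536811).

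The family took a median of 6.33% of a library's reads, with a range of 1.37% to 25.6%. let-7c was the most abundant member, with a median of 2.22% of reads and 38.1% of the family's reads. It was above let-7i, the next member (median 1.07% of reads), in 773 libraries, which is most of them. let-7i, let-7b (0.86%), let-7f (0.617%), let-7a (0.507%) and let-7g (0.474%) were closer to each other. Neighbours in that order changed places often: let-7i was above let-7b in 573 libraries, let-7b above let-7f in 590 and let-7a above let-7g in 542, and these mean differences of 0.16 to 0.49 in log2 CPM were smaller than their SD of 0.84 to 1.16. let-7d (0.0374%), let-7e (0.0239%) and miR-98 (0.00753%) were much lower, and let-7g was above let-7d in every library. No member had a count of 0 in any library, although let-7d fell to 1 read and miR-98 to 5 reads in the lowest.

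**Figure D1:**
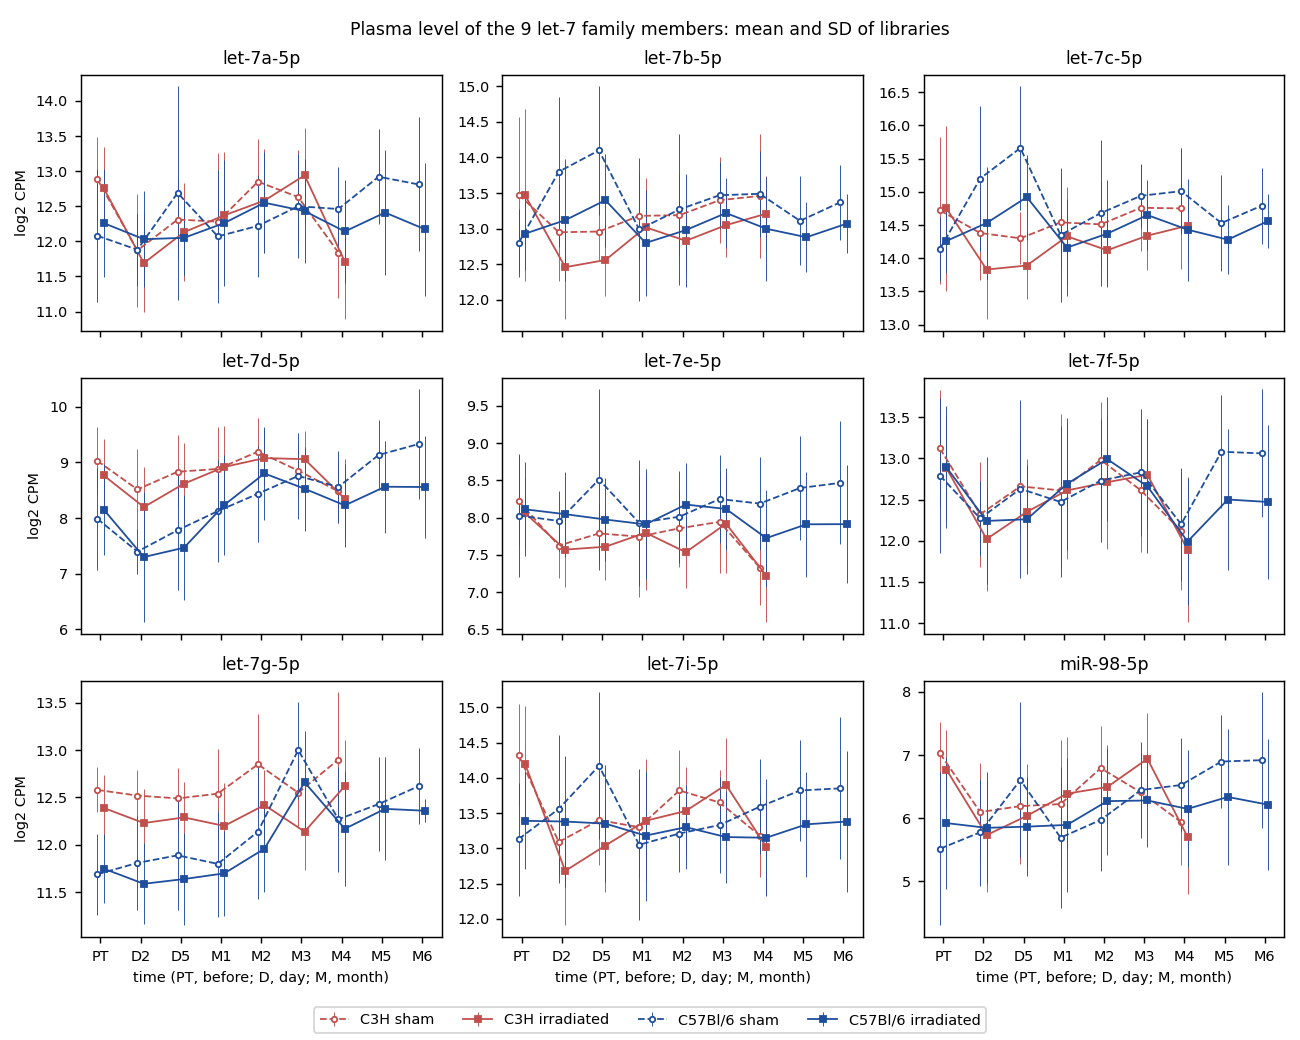
Mean log2 CPM of each of the 9 members (vertical axis) at each time point (horizontal axis) in sham (open circles, dashed) and irradiated (filled squares, solid) C3H (red) and C57Bl/6 (blue) mice, with the SD of 8 to 68 libraries as bars. let-7g was lower in C57Bl/6 than in C3H before irradiation, and let-7a in sham C57Bl/6 had its widest SD, 1.52, at day 5.

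Libraries with the same title code and time point resembled each other whether or not the mice were irradiated. Over 80 combinations of title code and time, the mean deviations of sham and irradiated libraries from their own group means had correlations of 0.55 (let-7i) to 0.79 (let-7b). These are descriptions, since the 2 sets share cohort, bleeding arm and sex, and the labels do not say whether they were also handled together. Title codes accounted for 31.2% (let-7g) to 64.6% (let-7b) of the summed squares within groups, part of which comes from fitting more means. The SD went from 0.452 within groups to 0.406 within title codes for let-7g. For let-7b it went from 0.745 to 0.48. let-7g had the smallest SD within groups, 0.45 in log2 CPM, and miR-98 the largest, 0.89. For the times at which members passed after irradiation, values are also given from a fit that compares irradiated with sham mice within title codes, an alternative chosen after the data were seen.

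The 4 sham day 5 libraries of C57Bl/6 females with title code G3BFS were singled out for their unusually many let-7 reads. Their let-7 levels below are therefore descriptions. let-7 reads made up 25.6%, 16.9%, 11.1% and 8.74% of these 4 libraries, against 5.69% to 14.0% in the other 12 sham day 5 libraries. Their let-7a levels were 16.11, 15.34, 14.94 and 13.43, above every one of the other 12 (11.24 to 13.33). The levels of let-7e, let-7g and miR-98 were also above the highest of the other 12 in all 4 libraries, for let-7g only just in the lowest of them (12.13). In the same 4 mice, let-7a was 12.41 to 13.73 before irradiation and 12.85 to 13.59 at month 1. Their total reads were 613500, 424100, 419400 and 1407000, of which 2 were just below the range of 433900 to 1735000 in the other 12. The median family share of 1 other title code and time also lay outside the libraries of the rest of its strain and time, the month 6 sham females of G1BFS at 15.65% against 4.175% to 14.44%.

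Other miRNA moved in the 4 libraries. Leukocyte miRNA miR-142a-3p lay at 11.52, 11.51, 11.08 and 9.84 against 7.72 to 9.75 in the other sham libraries, and the myeloid miRNA miR-223-3p at 13.49, 13.20, 13.91 and 11.69 against 11.13 to 12.58. The lymphocyte miRNA miR-150-5p was at 12.02, 11.11, 11.39 and 13.49 against 12.45 to 13.96. The other leukocyte markers differed among themselves. miR-155-5p was at 9.355, 8.41, 7.92 and 6.62 against 6.23 to 7.95. miR-142a-5p was at 10.74, 10.62, 10.15 and 11.63 against 9.45 to 11.36. miR-146a-5p, at 12.02, 12.85, 12.11 and 12.84, lay within the 11.25 to 12.88 of the other sham libraries. The summed level of the 6 leukocyte markers was 14.54 to 14.68 in these libraries and 13.75 to 14.73 in the other 12. Of the red cell markers, miR-451a was at 9.94, 10.14, 11.49 and 11.55 against 11.42 to 13.66. miR-486a-5p was at 12.61, 12.27, 13.10 and 13.82, below the 13.96 to 15.91 of the other 12. miR-144-5p and miR-363-3p lay within their range. miR-144-3p was at 5.17, 7.055, 6.35 and 7.56 against 6.01 to 8.53. The sum of the 6 red cell markers was 18.71 to 20.14 against 18.47 to 19.65. That sum was mostly miR-16-5p, at 19.06, 19.31, 20.12 and 18.65 against 18.34 to 19.53, so it says little about the other red cell markers. Their part in the let-7 levels was not tested.

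The first comparison asked whether thorax irradiation changed the let-7 family in plasma. Across the 14 strain and time combinations after irradiation, 10 of 126 member comparisons passed the threshold (edgeR quasi-likelihood test, Benjamini-Hochberg adjusted p under 0.05 over 483 miRNA), and all 10 were lower in irradiated mice. In C57Bl/6, 7 members passed at day 5 and let-7b and let-7c at day 2. In C3H, let-7g passed at month 1. The log2 fold change was negative in 100 of the 126 comparisons (79.4%), compared with 54.6% over all miRNA, and let-7b (-0.81 to -0.11), let-7c (-0.89 to -0.175) and let-7g (-0.485 to -0.02) were negative in all 14. let-7a, let-7d and miR-98 were negative in 9 of 14. The comparisons of 1 strain share mice, and the 9 members share a library, so these are not 126 independent observations.

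The share of all 483 miRNA that passed gives the scale for these counts. In C3H it was 4.97% at day 2, 3.11% at day 5, 3.31% at month 1, 0.621% at month 2, 2.07% at month 3 and 0.414% at month 4. In C57Bl/6 it was 6.63% at day 2, 14.1% at day 5, 3.73% at month 1, 3.31% at month 2, 1.66% at month 3, 4.76% at month 4, 3.52% at month 5 and 0.414% at month 6. Before irradiation, mice assigned to the 2 treatments differed in 0.0% of miRNA in C3H and 0.0% in C57Bl/6, and the members' log2 differences were between -0.27 and 0.21.

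At day 2, let-7b and let-7c were lower in irradiated C57Bl/6 mice. let-7b ranged from 11.67 to 14.51 (median 13.14) in 32 irradiated libraries and from 12.16 to 15.28 (median 14.09) in 16 sham libraries, so the groups overlapped. Its log2 fold change was -0.77 (SE 0.22, adjusted p = 0.0117, edgeR). let-7c ranged from 13.10 to 15.83 (median 14.52) in irradiated and from 13.46 to 16.85 (median 15.35) in sham libraries, with a log2 fold change of -0.80 (SE 0.23, adjusted p = 0.0113, edgeR). The other 7 members had log2 fold changes of -0.23 (let-7g) to 0.23 (let-7a), and none of them passed the threshold.

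Within title codes, the day 2 difference of let-7b in C57Bl/6 was -0.89 in G1AF, -0.58 in G1AM and -1.39 in G3AF, but 0.14 in G3AM. let-7c followed the same order, with -1.04, -0.55, -1.31 and 0.19. With title codes in the fit, let-7b (-0.81) and let-7c (-0.80) passed in C57Bl/6, where 10.4% of all miRNA did. In C3H the same fit also passed both, at -0.48 for let-7b (adjusted p = 0.0236, edgeR) and -0.535 for let-7c (adjusted p = 0.0162, edgeR), beside 8.28% of all miRNA. All 4 C3H title codes were lower at day 2, by -0.40 to -0.54 for let-7b and -0.48 to -0.575 for let-7c. Without title codes the C3H values were -0.46 and -0.52 and did not pass. With the mouse as a replicate block (limma-voom), let-7b (-0.705) and let-7c (-0.70) also passed in C57Bl/6, and in C3H neither did (adjusted p = 0.186 and 0.15, limma-voom). Other settings ended the C57Bl/6 calls: the adjusted p was 0.102 for let-7b and 0.0912 for let-7c in an edgeR fit of the 2 groups alone, 0.0606 and 0.0559 with libraries of at least 500000 reads, and 0.255 and 0.293 with quantile normalization and limma, where the changes were -0.39 and -0.35. By limma-voom let-7c did not pass either (adjusted p = 0.0564). In cohort 1 of C57Bl/6 alone both passed, and in cohort 2 alone neither did, at -0.81 for let-7b (adjusted p = 0.0816, edgeR) and -0.72 for let-7c (adjusted p = 0.198, edgeR). The difference between the strains in the irradiation effect was not past the threshold for either (adjusted p = 0.965 for both, edgeR F test over 6 times).

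Other miRNA also differed at day 2. Of the 6 leukocyte markers, 2 were lower in irradiated C57Bl/6 mice and 5 in irradiated C3H mice. Beside these counts, 6.63% of all miRNA passed in either direction in C57Bl/6 and 4.97% in C3H. The median of the markers' summed level was 13.47 in irradiated and 14.04 in sham C57Bl/6 libraries, and 13.40 and 14.46 in those of C3H. miR-125b-5p, whose genes lie near Mirlet7c-1 and Mirlet7a-2, was lower by a log2 fold change of -0.69 (SE 0.16, adjusted p = 0.000454, edgeR) in C57Bl/6. Of the 5 miR-99, miR-100 and miR-125 cluster partners, 3 were lower there, beside the same 6.63% of all miRNA. Their part in the let-7 result was not tested.

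**Figure D2:**
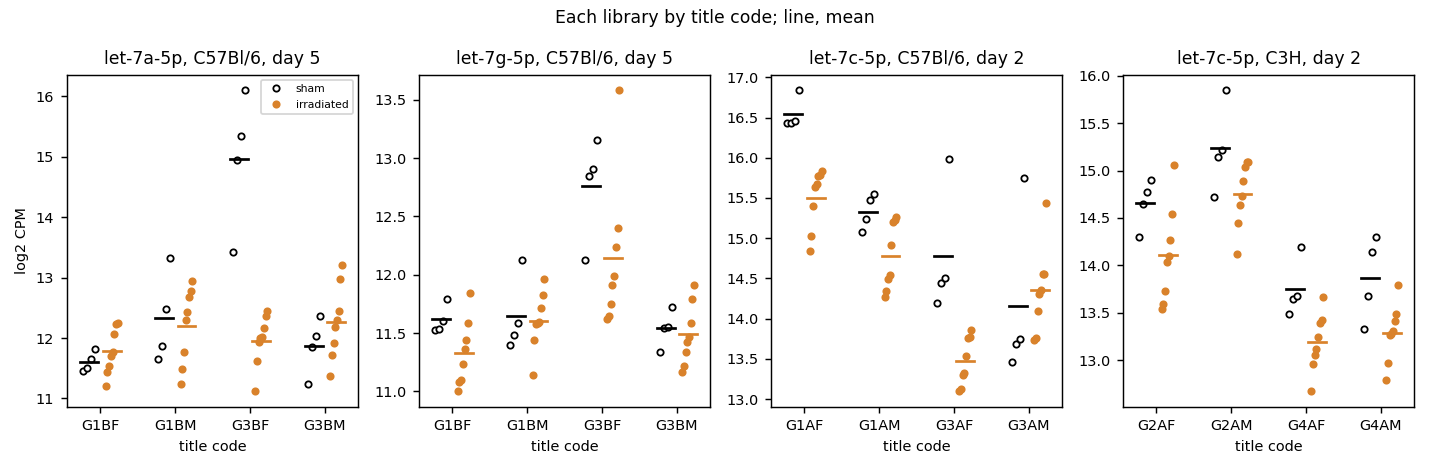
Each library's log2 CPM (vertical axis) of let-7a and let-7g at day 5 in C57Bl/6 and of let-7c at day 2 in both strains, by title code (horizontal axis), with sham open, irradiated filled and the mean as a line. The 4 sham libraries of G3BF hold let-7a at 13.43 to 16.11, and let-7c was lower in irradiated mice in 7 of the 8 title codes at day 2.

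At day 5, the C57Bl/6 calls depended on the 4 libraries described above. These were picked for high let-7 reads among sham libraries, so leaving them out by itself works toward a smaller difference. With all libraries, let-7a ranged from 11.12 to 13.22 (median 12.04) in 32 irradiated libraries and from 11.24 to 16.11 (median 11.95) in 16 sham libraries, so the medians were close and the sham range extended upward. The fitted log2 fold change, a ratio of mean levels that high libraries weigh on, was -1.50 (SE 0.23, adjusted p = 1.37e-08, edgeR), whereas the difference of mean log2 levels was -0.64. Fitted changes past the threshold were also found for miR-98 (-1.09), let-7e (-1.03), let-7i (-0.999), let-7c (-0.89), let-7b (-0.81) and let-7f (-0.66), and not for let-7d (-0.37) or let-7g (-0.27). With title codes in the fit, 6 members passed, beside 15.1% of all miRNA: let-7i (-0.92), let-7c (-0.91), let-7b (-0.845), miR-98 (-0.84), let-7a (-0.83) and let-7e (-0.67). let-7f was at -0.46 in that fit (adjusted p = 0.0922, edgeR). With the mouse as a replicate block (limma-voom), 3 members passed, let-7b (-0.68), let-7c (-0.73) and let-7i (-0.80), beside 8.9% of all miRNA.

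Without the 4 libraries, 0 of the 9 members passed at day 5 by edgeR, where 9.54% of all miRNA did, and 2 members had an unadjusted p under 0.05. let-7a then changed by 0.11 (SE 0.24, adjusted p = 0.852, edgeR), let-7e by 0.11 and let-7f by 0.18. let-7b (-0.53, SE 0.24) and let-7c (-0.54, SE 0.25) had the lowest values among the members, with adjusted p = 0.174 and 0.178 by edgeR. The 8 irradiated G3BF libraries then have no sham library of their title code, so these values also compare different title codes. Within G1BF, G1BM and G3BM, the mean difference was -0.07, -0.56 and -0.345 for let-7b and -0.05, -0.61 and -0.37 for let-7c. The mean let-7a difference by title code was -3.0 in G3BF and 0.17, -0.13 and 0.39 in G1BF, G1BM and G3BM.

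**Figure D3:**
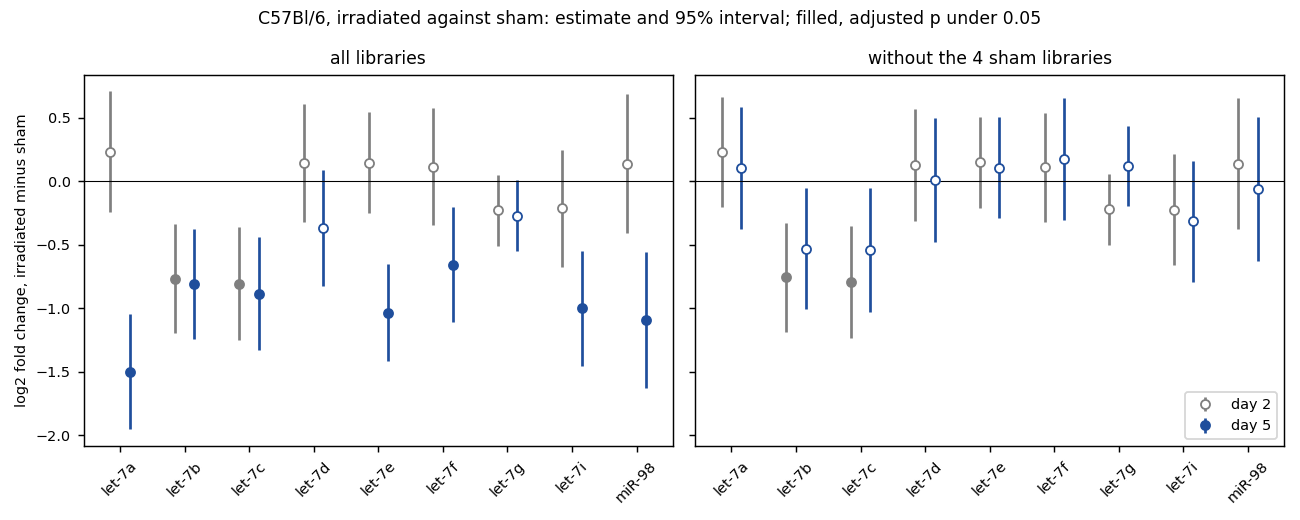
Log2 fold change of irradiated against sham C57Bl/6 mice (vertical axis) for each member (horizontal axis) at day 2 (grey) and day 5 (blue), with all libraries (left) or without the 4 sham libraries (right), with 95% intervals and filled points for an adjusted p under 0.05. The day 5 changes of let-7a and let-7e, -1.50 and -1.03 with all libraries, were both 0.11 without the 4 sham libraries, and let-7b and let-7c at day 2 stay filled in both panels.

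At month 1, let-7g was lower in irradiated C3H mice. It ranged from 11.37 to 13.57 (median 12.16) in 58 irradiated and from 11.89 to 13.71 (median 12.40) in 32 sham libraries, with a log2 fold change of -0.35 (SE 0.10, adjusted p = 0.0248, edgeR). The ranges overlapped almost entirely. With title codes in the fit it was -0.35 (adjusted p = 0.00679, edgeR), beside 3.93% of all miRNA. With each mouse as a fixed replicate block it was -0.16 (adjusted p = 0.885, limma-voom), and it also missed the threshold in edgeR with the 2 groups alone (adjusted p = 0.0532), without a filter (0.0556) and with TMM factors without the members (0.123). Its change was -0.32 in cohort 1 and -0.315 in cohort 2, neither past the threshold alone (adjusted p = 0.477 and 0.343, edgeR). From month 2 on, 0 members passed in either strain in the edgeR fit over all 32 groups. In edgeR with the 2 groups alone, let-7g passed at month 3 in C3H (-0.41, adjusted p = 0.0435). With the cohort and sex block it passed at month 2 in C3H (-0.48, adjusted p = 0.0272, edgeR). With title codes in the fit, let-7g passed at month 2 in C3H (-0.50) and let-7c (-0.51) and let-7e (-0.46) at month 4 in C57Bl/6. With each mouse as a fixed replicate block, miR-98 passed at month 6 in C57Bl/6 (-1.42, adjusted p = 0.0487, limma-voom). For these late calls in alternative fits, the share of all miRNA that passed is not given, so they cannot be set against it. At month 6 in C57Bl/6, with 8 irradiated and 16 sham libraries, all 9 changes were negative, from -0.27 for let-7c to -0.79 for let-7d, without passing.

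The strain difference in the response was tested over the 6 shared times. let-7a passed (adjusted p = 0.0204, edgeR F test), where 4.35% of all miRNA did, with a day 5 difference of -1.40 (SE 0.34) between C57Bl/6 and C3H. It did not pass without the 4 libraries or with the mouse as a replicate block. The other 8 members had an adjusted p of 0.293 to 0.965 in that edgeR test.

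The second comparison concerned the strains before irradiation, with 96 libraries each. In C57Bl/6, 7 members were lower, by log2 fold changes of -1.01 (let-7i), -0.93 (let-7b), -0.88 (miR-98), -0.87 (let-7c), -0.735 (let-7g), -0.71 (let-7d) and -0.51 (let-7a), while let-7e (0.03) and let-7f (-0.05) did not pass. This count stood in a background of 57.7% of 336 miRNA. let-7g showed the smallest spread, with 11.56 to 13.36 (median 12.49) in C3H and 10.76 to 12.54 (median 11.74) in C57Bl/6, and an adjusted p of 1.39e-28 by edgeR.

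The strain difference depended on the cohort for most members. In cohort 1 all 9 members were lower in C57Bl/6, beside 62.6% of all miRNA, by -0.52 (let-7f) to -1.91 (miR-98). In cohort 2, beside 54.2% of all miRNA, let-7g (-0.55), let-7d (-0.52) and let-7i (-0.31) were lower, whereas let-7e (0.45), let-7c (0.385), let-7f (0.27) and let-7b (0.23) were higher. The cohorts of C3H lay far apart in let-7c, which was 15.82 ± 0.55 (SD, n = 48) in cohort 1 and 13.65 ± 0.43 (SD, n = 48) in cohort 2, compared with 14.41 ± 0.41 and 14.03 ± 0.49 in the C57Bl/6 cohorts. In sham mice over day 2 to month 4, a comparison added after the data were seen, where 53.6% of all miRNA differed between strains, let-7d (-0.53) and let-7g (-0.45) were again lower in C57Bl/6, and let-7e (0.53), let-7c (0.51) and let-7b (0.41) were higher. let-7d and let-7g were thus lower in C57Bl/6 in each of these 4 estimates. The estimate in all mice holds both cohorts, and the later sham mice are among the same mice, so the 4 are not independent.

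**Figure D4:**
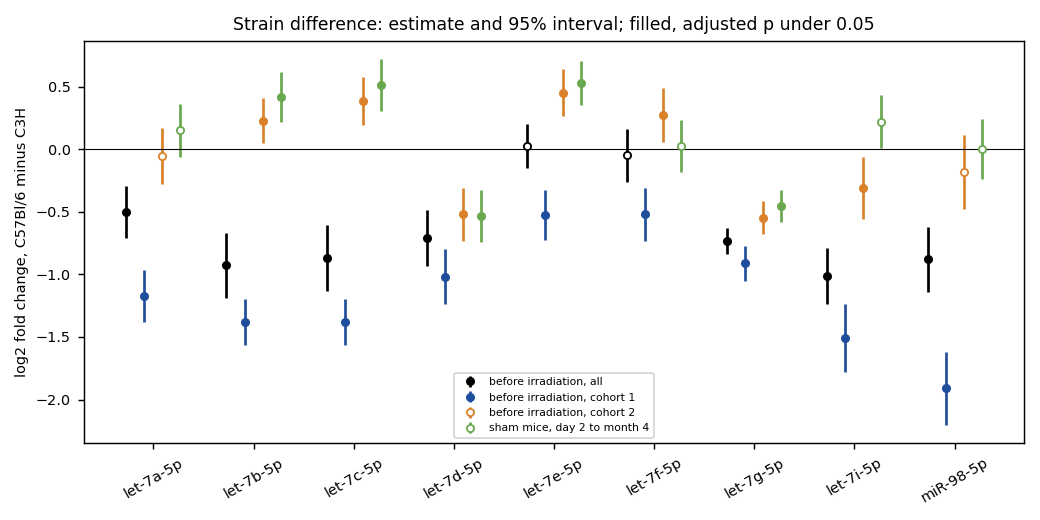
Log2 fold change of C57Bl/6 against C3H (vertical axis) for each member (horizontal axis) before irradiation in all mice, in cohort 1 and in cohort 2, and in sham mice from day 2 to month 4, with 95% intervals and filled points for an adjusted p under 0.05. let-7d and let-7g lie below 0 in all 4 estimates, some of which share mice, and let-7c goes from -1.38 in cohort 1 to 0.385 in cohort 2.

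Sex differences before irradiation were compared within each strain. Per the study's methods, females came from an older age range than males, so sex and age cannot be told apart. In C3H, females were lower than males in let-7f (-0.47, SE 0.15, adjusted p = 0.018, edgeR) and let-7e (-0.35, SE 0.13, adjusted p = 0.0376, edgeR), where 19.9% of 336 miRNA passed. Both rested on cohort 2, where let-7f was at -0.91 and let-7e at -0.62 and 4 members passed beside 30.5% of miRNA. In cohort 1, let-7f was at 0.07 and let-7e at -0.09, and let-7b (-0.41, adjusted p = 0.0323, edgeR) and let-7c (-0.58, adjusted p = 0.00129, edgeR) passed in their place, beside 7.29% of miRNA. In C57Bl/6 0 members passed by edgeR, with differences of -0.37 to 0.25, where 19.6% of miRNA passed. The difference between strains in the sex difference passed for let-7f (0.57, SE 0.21, adjusted p = 0.0482, edgeR), beside 17.3% of miRNA. For let-7f it was 0.86 in cohort 2 (adjusted p = 0.00179, edgeR) and 0.29 in cohort 1 (adjusted p = 0.486, edgeR). In cohort 1, let-7b and let-7c passed instead.

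The third comparison followed sham mice over time. Levels changed over time for 8 of 9 members in C3H, all but let-7d, where 46.0% of all miRNA did, and for 9 of 9 in C57Bl/6, where 62.9% did (edgeR F tests). These tests treat the repeated samples of a mouse as independent. With the mouse as a replicate block (limma-voom), all 9 passed in C57Bl/6, beside 70.8% of all miRNA. In C3H, 7 passed in that fit, beside 58.6%, with let-7d past the threshold (adjusted p = 0.0415) and let-7b (0.198) and let-7c (0.562) not. With each mouse as a fixed replicate block (limma-voom), let-7b (adjusted p = 0.00651) and let-7d (0.00299) passed in C3H and let-7c (0.0517) did not. By limma-voom without the block, 6 passed in C3H, beside 56.9%, without let-7b, let-7c and let-7d. In C3H the clearest member was let-7i, whose log2 change from before irradiation was -1.33 (SE 0.25) at day 2 and -1.21 (SE 0.25) at month 4. Within the same mice, let-7i was lower than before in 15 of 16 at day 2 and in 16 of 16 at month 4. In C57Bl/6, let-7b and let-7c moved the other way at first, with log2 changes of 1.25 (SE 0.22) and 1.35 (SE 0.23) at day 2. let-7c was above its own earlier level in 13 of 16 mice at day 2 and in 16 of 16 at day 5.

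let-7g rose late in sham C57Bl/6 mice. It was 11.04 to 12.54 (median 11.63) before irradiation in 32 libraries and 12.17 to 13.87 (median 13.15) at month 3 in 16 libraries, so the ranges overlapped only at their ends. The log2 change was 1.33 (SE 0.14, adjusted p = 3.05e-18, edgeR), and 15 of 16 mice were above their own earlier level. It stayed above it in 15 of 16 mice at each of months 4, 5 and 6. let-7d and miR-98 were above their own earlier level in 16 of 16 mice at month 6, by 2.00 ± 1.09 and 2.10 ± 0.92 (SD, n = 16) in log2 CPM, and their fitted changes were 1.34 and 1.20. In C3H at month 4, miR-98 was instead below its earlier level in 14 of 16 mice. In C3H, let-7g at month 3 was higher than before in 8 of 16 mice. Late samples may include terminal bleeds taken from the heart, whose part in these changes was not tested. Because months 2 and later hold only the first cohort while the groups before irradiation hold both, changes within mice can differ from the fitted ones. At month 2 let-7c in C3H changed by -0.45 in the fit and by -1.24 ± 0.88 (SD, n = 16) within mice.

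Members did not move as 1 group between libraries. After removal of the 32 group means, let-7a, let-7d, let-7e, let-7f and miR-98 correlated with each other at r = 0.71 to 0.95 over all libraries, and let-7b with let-7c at 0.99. Correlations between these 2 sets were only -0.24 to 0.06. let-7i went with let-7a (0.80) and less with let-7b (0.45), and let-7g with let-7b (0.39) and hardly with let-7a (0.05). With title code means removed the ranges were 0.63 to 0.97 within the first set and -0.07 to 0.22 between the sets. let-7a and let-7c, which differ by 1 base, had r = -0.04, and let-7a and let-7i, which differ by 4, had r = 0.80. Members measured in the same library share its depth and handling, so these are descriptions.

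**Figure D5:**
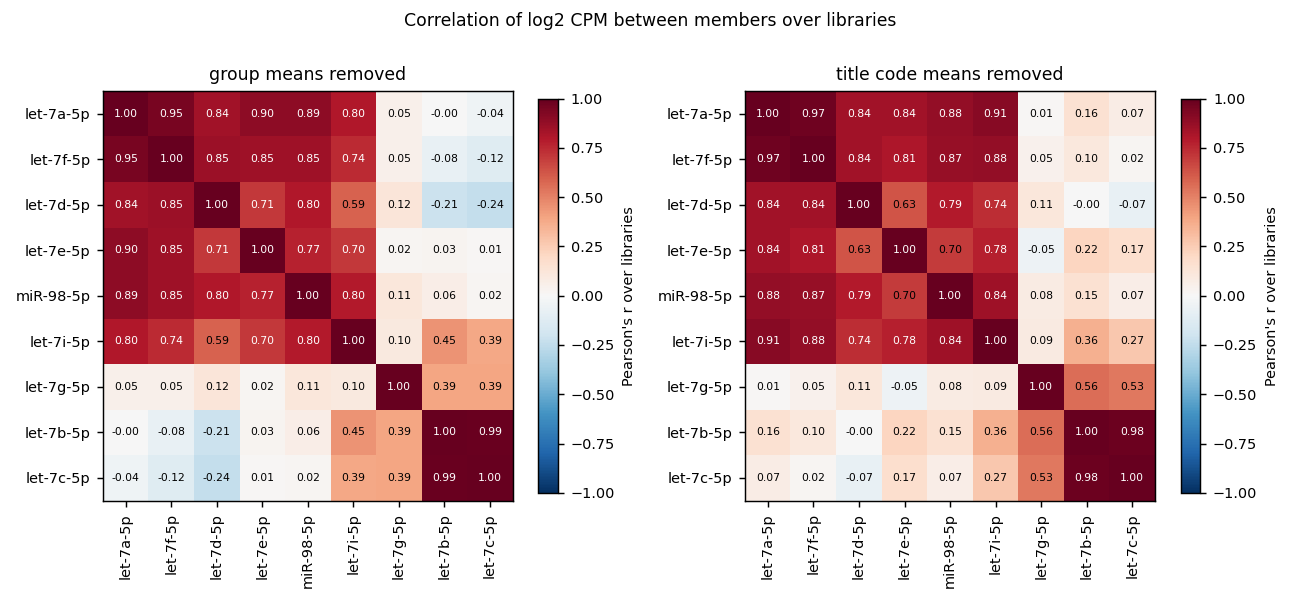
Pearson correlation of log2 CPM between each pair of members over all libraries, with group means removed (left) or title code means removed (right), where colour and number give r. let-7a, let-7d, let-7e, let-7f, miR-98 and let-7i form one block, and let-7b and let-7c another at 0.99 (left).

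The miRNA most like the summed family were miR-151-3p (r = 0.71), miR-872-5p (0.69), miR-26b-5p (0.61), miR-1843a-5p (0.60) and miR-181d-5p (0.59), over all libraries with group means removed. Among the miRNA outside the family, let-7a was most like miR-142a-3p (0.87) and let-7c most like miR-200c-3p (0.81). Of the 12 named 3p arms of the same hairpins, 8 were tested after irradiation and let-7d-3p was the only abundant one, with a median of 1467 reads against 547 for let-7d-5p. let-7a-1-3p and let-7c-2-3p have the same sequence in RefSeq and cannot be told apart. At day 5 in C57Bl/6, 0 of the 8 tested 3p arms passed by edgeR, and in the 4 sham libraries let-7d-3p was at 9.55, 9.07, 9.07 and 10.01 against 9.83 to 10.58 in the other 12. The other miRNA with the same seed, let-7k and miR-1961, had 217 and 0 reads in all libraries together and were not tested.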

How the data were processed

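miRNA of all mouse plasma samples was analysed. Per the labels and the study's methods, the authors drew blood from live mice by retro-orbital bleeding and from the heart at terminal bleeds (the labels do not say which libraries are terminal), left out plasma with excess hemolysis, made libraries with the QIAseq miRNA kit, aligned reads with the Illumina BaseSpace Small RNA application (mm10 in the submitters' processing notes), and deposited raw counts per mature miRNA. Whether molecular identifiers were used and which miRBase release was used is not given in the sources used here. Near-identical members may therefore exchange reads, and PCR duplicates may be counted.

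From these counts, edgeR 4.0.16 (R 4.3.3) was run with TMM scaling, filterByExpr and quasi-likelihood tests over 32 groups of strain, time and treatment (483 miRNA, 99.99% of reads, 867 residual degrees of freedom). Strain and sex before irradiation were fitted on 8 groups (336 miRNA). Adjusted p-values are Benjamini-Hochberg over all miRNA tested, with a threshold of 0.05. Levels are log2 CPM with a prior count of 2. Alternatives were DESeq2 1.42.0, limma 3.58.1 (voom, and quantile-normalized values with a pseudocount of 1), other scalings and filters, single cohorts, blocks for cohort and sex, title code or mouse, and the removal of 4 sham libraries. The title code fits, the strain comparison in later sham mice and the removal of 4 mice without a library before irradiation were chosen after seeing the data. The 4 sham libraries were picked for their unusually many let-7 reads, so the results without them are not an independent check. The scripts were tested on simulated data.

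Replicate numbers name mice, and the same mouse was bled repeatedly. Over 99 miRNA, libraries of the same mouse deviated together only weakly (mean r = 0.082 over 1960 pairs), less than different mice of the same title code and time (0.262). Named miRNA are the 9 members, the 3p arms of their hairpins, others with the same seed, 5 cluster partners, markers of blood cells and the miRNA most like the family by correlation. Members, lists and comparisons were chosen with earlier results of these data known. Sequences and positions come from RefSeq and annotation of GRCm38.p6, the build family of mm10.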

Additional observations from a re-analysis of the deposited data

Results flagged for a closer look

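The effect of irradiation differed between C57Bl/6 and C3H for let-7a (adjusted p = 0.0204, edgeR F test over 6 times). It was carried by day 5, where the log2 fold change was -1.50 in C57Bl/6 and -0.10 in C3H, and it did not pass without the 4 sham libraries.

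The difference between females and males before irradiation differed between the strains for let-7f (adjusted p = 0.0482, edgeR), with log2 differences of -0.47 in C3H and 0.10 in C57Bl/6. In cohort 1 alone it did not pass for let-7f (adjusted p = 0.486, edgeR). A check for single stray libraries in the 8 irradiated C57Bl/6 libraries of month 6 found none for any of the 9 members.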

How the results depend on the processing

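Calls after irradiation in C3H (1 of 54) became 0 with TMM factors without the members, in cohort 1, in cohort 2, without a filter and with each mouse as a fixed replicate block, 4 with the cohort and sex block or the title code block, and 3 with title codes and without the 4 libraries. Those in C57Bl/6 (9 of 72) became 2 in cohort 1, with quantile normalization or without the 4 libraries, 5 with libraries of at least 500000 reads, with the mouse as a replicate block or with title codes and without the 4 libraries, and 4 with limma-voom or the fixed replicate block. At day 5 alone 7 became 0 in cohort 1 and without the 4 libraries with or without title codes, 3 with limma-voom or the mouse replicate block, and 1 with the fixed replicate block or quantile normalization. The share of all miRNA called there also moved, from 14.1% to 15.1% with title codes, 8.9% with the mouse replicate block and 9.54% without the 4 libraries. Where no share is given here or above, the counts of this section cannot be set against all miRNA.

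Sex calls in C3H (2) became 4 in cohort 2, 0 without a filter and 1 with quantile normalization, and those in C57Bl/6 (0) became 1 in cohort 2. The strain difference in sex (1) became 2 with DESeq2, limma-voom, either cohort or libraries of at least 500000 reads, and 0 with DESeq2 size factors or no filter. In cohort 1 these 2 were let-7b and let-7c, without let-7f. Sham changes in C3H (8) became 5 with quantile normalization, 6 with limma-voom and 7 with the mouse as a replicate block. The strain difference in the irradiation effect (1) became 2 with DESeq2 size factors or no filter, and 0 with the cohort and sex block, libraries of at least 500000 reads, limma-voom, both replicate blocks, quantile normalization, title codes or without the 4 libraries.

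Day 5 values reversed in cohort 1 for let-7a (0.104), let-7e (0.119) and miR-98 (0.152), without the 4 libraries for let-7a (0.106), let-7e (0.107) and let-7f (0.18), where let-7g (0.123) and let-7d (0.0113), not called with all libraries, also turned positive, and with title codes and without these libraries for let-7a (0.149), let-7e (0.115), let-7f (0.0798) and miR-98 (0.081). The strain difference reversed in later sham mice for let-7a (0.15), let-7b (0.414), let-7c (0.514) and let-7i (0.219), and in cohort 2 for let-7b (0.227) and let-7c (0.385). The sex difference of let-7f in C3H reversed in cohort 1 (0.0735). The causes were not tested. Of 267 values for 20 single results, 189 kept direction and side of the threshold, 61 kept direction only and 17 reversed.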
